A study of Mus musculus with 2 samples.

Results

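Fibroblast growth factor 9 (FGF9) signalling was followed through 10 mouse genes in RNA of an anti-FLAG precipitate of FLAG-tagged NANOS2. The genes are the ligands Fgf9 and Fgf2, the receptors Fgfr1, Fgfr2, Fgfr3 and Fgfr4, and the feedback inhibitors Spry1, Spry2, Spry4 and Dusp6. All 10 were present among the 20161 named genes of the array, through 21 of its 41174 non-control probes. The members were chosen by name with this series' difference between precipitate and input already known, so their differences are given as a description, without p-values.

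The study asked which mRNAs associate with NANOS2, an RNA-binding protein of male germ cells. Both groups came from MCH male gonads at embryonic day 14.5 carrying a transgene in which a Nanos2 enhancer drives 3xFLAG-tagged Nanos2 with the Nanos2 3′ untranslated region. The FLAG IP group is RNA precipitated with anti-FLAG M2 agarose, and the input group is RNA without antibody. Each group had 2 one-colour Agilent arrays, described as biological duplicates. The transgene runs from germ cell regulatory sequence, whereas the input holds RNA of the whole gonad, in which fewer cells of a type and less RNA per cell cannot be told apart. No untagged or unrelated-antibody precipitate was analysed here, and neither the number of gonads per array nor any pooling of embryos is given in the sources used here.

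FGF ligands bind receptor tyrosine kinases together with heparan sulfate, and the activated receptors signal through the adaptors FRS2 and GRB2 to RAS and the MAP kinases. Sprouty proteins and the phosphatase DUSP6 are induced by this signal and dampen it. In the fetal testis FGF9, made mainly by supporting cells, sustains Sertoli cell fate, and it acts on germ cells to favour the male pathway over entry into meiosis.

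Array brightness set what could be measured. In intensity units, the processed signal had its 75th percentile at 1026 and 1038 for the input, but at 55.7 for the dimmer and 608 for the brighter FLAG IP array (replicates 1 and 2). Levels below are signals divided by the 75th percentile of their own array, so a level of 1 is a signal at that percentile. The dimmest probe marked well above background had a level of 0.0143 and 0.00932 in the input, of 0.147 on the dimmer FLAG IP array and of 0.0160 on the brighter one. FLAG IP replicate 1 therefore gave no measured level for weak transcripts. Of the 21 member probes, 19 were well above background on both input arrays and 9 on all 4 arrays. These 19 probes entered the fit, as did at least 1 probe of every member, and no member entered through the FLAG IP alone. The number of arrays limits the precision of every difference that follows.

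Fgf9, the ligand that gives the pathway its role in the testis, stood higher in the FLAG IP than in the input. Its single probe had levels of 0.296 and 0.317 in the input, and of 1.59 and 1.27 in the FLAG IP. Both FLAG IP arrays lay far above both input arrays. The log2 fold change was 2.21 ± 0.20 (SE; n = 2 arrays per group), a 4.64-fold difference, and the 4 pairs of one FLAG IP and one input array gave 2.002 to 2.428. Before scaling, its processed signal was 304 and 329 units in the input, 88.8 on the dimmer FLAG IP array and 773 on the brighter one, so that 1 FLAG IP array lay below and 1 above both input arrays, and the direction rests on the scaling. Fgf9 ranked at position 750 of the 15269 genes tested, at the 95.1 percentile, as the plot of all genes shows. Its call was lost without input replicate 1, where limma called 0 of all genes higher (2732 at an unadjusted p under 0.05), and the log2 fold change there was 2.17.

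**Figure D1:**
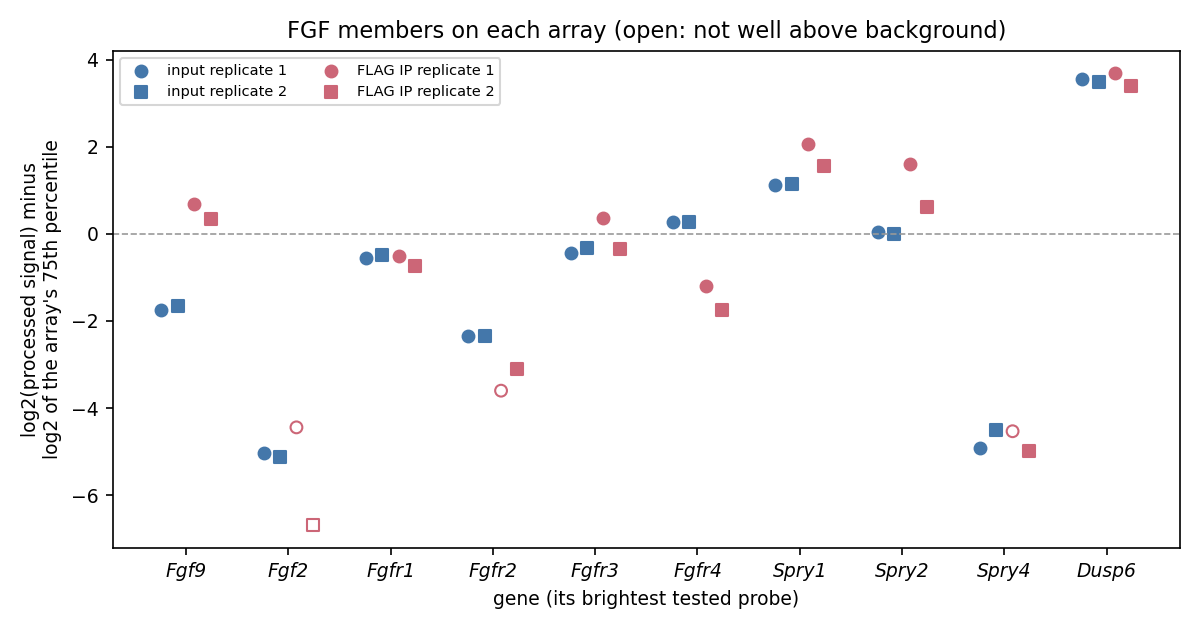
Scaled log2 signal of the brightest tested probe of each FGF member on the 2 input arrays (blue) and the 2 FLAG IP arrays (red). Open symbols are not well above background, and levels of different genes are not comparable because each probe binds with its own strength. Fgf9 shows both FLAG IP arrays above both input arrays, Fgfr4 shows the reverse, and the 4 Dusp6 values overlap.

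Fgf2, a ligand that many cell types make, was near the limit of measurement. Its brighter probe had levels of 0.0308 and 0.0289 in the input. On the FLAG IP arrays, where neither reading was well above background, it read 0.0460 and 0.00970, one above and one below the input. The fitted log2 fold change was -0.50 ± 0.80 (SE), and no lower bound on the fold could be given because the floor of FLAG IP replicate 1 lay above the input level. It stood at -1.62 without FLAG IP replicate 1 and at 0.62 without FLAG IP replicate 2. With all 4 arrays it was called lower under quantile normalization (-1.17). The sign also turned, without a call, after normexp background correction (1.25) and with 50 units added to each signal (1.46). The second Fgf2 probe behaved in the same way, with levels of 0.0268 and 0.0299 in the input and 0.0428 and 0.00627 in the FLAG IP.

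The 4 receptor genes did not move together. Fgfr4 stood lower in the FLAG IP, Fgfr2 lower by 1 probe on its brighter and higher on its dimmer probe, and Fgfr1 and Fgfr3 were not called in either direction. Over the 10 members, 1 was called higher and 2 lower at an adjusted p below 0.05 in limma, against 28.0% of all genes called higher, 25.4% called lower and 53.4% called in either direction. The FLAG IP and input arrays did not overlap for 5 of the 10 members, and for 80.2% of all genes. Because this contrast was in view when the genes were chosen, nothing is read from these counts. The median log2 fold change was -0.01 over the members and 0.07 over all genes tested.

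Fgfr4 encodes a receptor that also serves bile acid-regulating FGFs in the liver. Its brightest probe had levels of 1.20 and 1.21 in the input, and of 0.435 and 0.297 in the FLAG IP. All 4 readings were well above background, and the groups did not overlap. The log2 fold change was -1.75 ± 0.25 (SE), and the level was 3.36-fold higher in the input. The other Fgfr4 probes pointed the same way without being called, at -0.64 ± 0.22 and -1.34 ± 0.55. On FLAG IP replicate 1 these dimmer probes were not well above background. The call of the brightest probe was lost without input replicate 1 (-1.76) or input replicate 2 (-1.74), after normexp background correction (-1.16), with 50 units added to each signal (-1.27), and without scaling.

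Fgfr2, the receptor gene through which FGF9 acts on Sertoli cell precursors, gave opposite results with its probes. The brighter probe had levels of 0.197 and 0.196 in the input, and of 0.0825 and 0.116 in the FLAG IP. Its log2 fold change was -1.01 ± 0.23 (SE), and only FLAG IP replicate 2 was well above background. The dimmer probe had levels of 0.0326 and 0.0266 in the input, and of 0.0463 and 0.0554 in the FLAG IP, again with only FLAG IP replicate 2 well above background. With every probe fitted on its own, the brighter Fgfr2 probe was called lower and the dimmer one higher, at 0.78 ± 0.21. In that fit 2 of the members' probes were called higher and 3 lower, against 24.6% and 23.4% of all probes. Opposite calls of this kind occurred in 119 of the 5943 genes that had several tested probes (2.0%). The brighter probe also turned to 0.41 after normexp background correction and to 0.40 with 50 units added to each signal. These values were 0.03 and 0.01 relative to the median of all genes. It was no longer called when slide entered as a block, without scaling, with no filter on dim probes, with the mean of its probes (-0.11), or when either input array was left out.

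Fgfr1, a receptor gene active in many mesenchymal tissues, was measured by 4 tested probes. The brightest had levels of 0.685 and 0.710 in the input, and of 0.698 and 0.6003 in the FLAG IP, so that the groups overlapped. Its log2 fold change was -0.11 ± 0.17 (SE). The other probes gave -0.37 ± 0.16, -0.82 ± 0.24 and -0.09 ± 0.62, and none was called. Those at -0.82 and -0.09 were not well above background on FLAG IP replicate 1. All 4 Fgfr1 probes thus had negative differences. The sign of the brightest one turned after normexp background correction (0.15), with 50 units added (0.03) and, at 0.00083, without FLAG IP replicate 2, while relative to the median of all genes it stayed negative under each alternative run, from -0.66 to -0.08.

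Fgfr3, another FGF9 receptor gene, had 2 tested probes with differences of opposite sign, neither of them called. The first gave levels of 0.742 and 0.794 in the input, and of 1.28 and 0.791 in the FLAG IP, so that FLAG IP replicate 1 alone stood apart. Its log2 fold change was 0.39 ± 0.29 (SE). It was 0.05 without FLAG IP replicate 1 and 0.73 without FLAG IP replicate 2, while normexp background correction turned it to -0.21. The second gave 0.843 and 0.872 in the input, and 0.680 and 0.885 in the FLAG IP, with a log2 fold change of -0.14 ± 0.21. A further Fgfr3 probe was not well above background on both arrays of either group and was not tested.

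**Figure D2:**
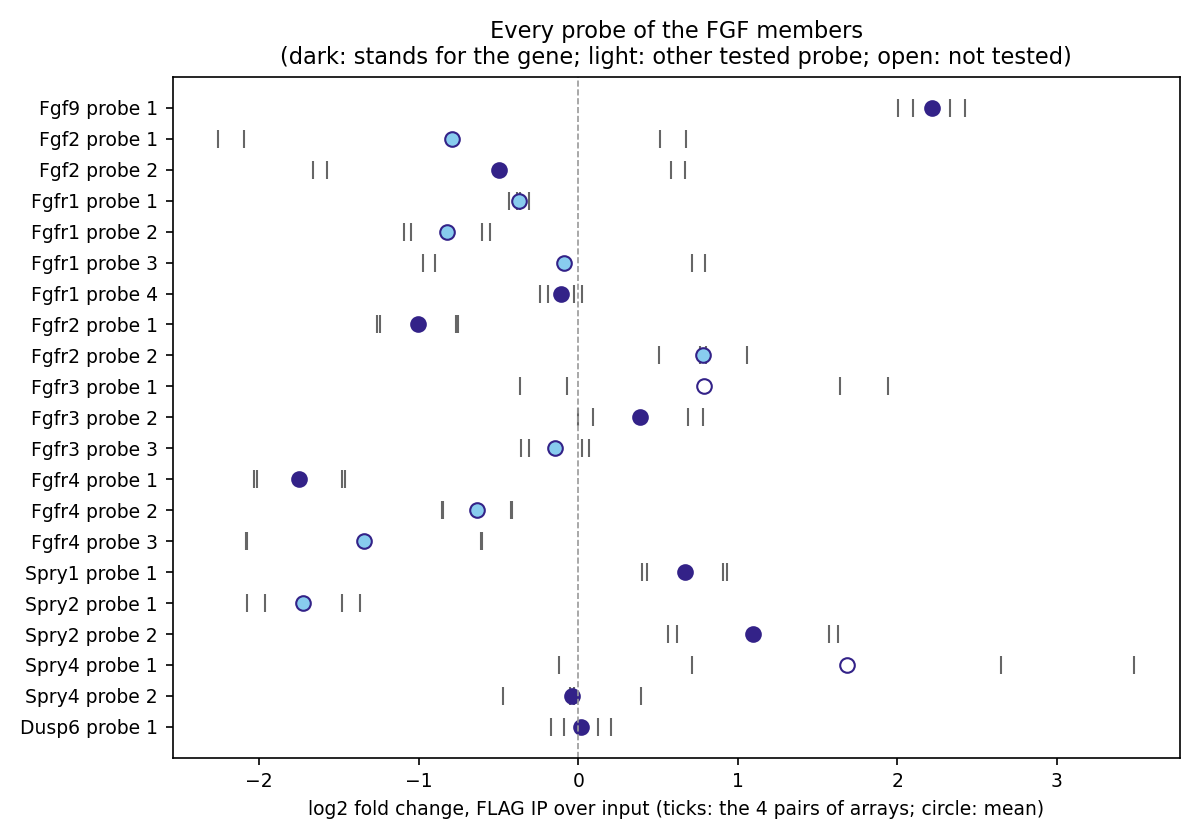
Log2 fold change of FLAG IP over input for each of the 21 probes of the FGF members, with circles for the mean and ticks for the 4 pairs of arrays. Circles of the tested probes of Fgfr2, Fgfr3 and Spry2 lie on opposite sides of 0, and those of Fgfr1 and Fgfr4 on the negative side. The ticks of the Fgf2 probes and of Fgfr1 probes 3 and 4, among others, spread to both sides.

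None of the 4 feedback genes was called on its brightest tested probe, and the probes of Spry2 disagreed. Spry1, a Sprouty gene that restrains receptor tyrosine kinase signalling, had levels of 2.18 and 2.22 in the input, and of 4.17 and 2.94 in the FLAG IP. The groups did not overlap, and the log2 fold change was 0.67 ± 0.24 (SE). Spry1 stood at 0.42 without FLAG IP replicate 1 and at 0.92 without FLAG IP replicate 2. Relative to the median of all genes it stood at 0.13 after normexp background correction and at -0.05 with 50 units added to each signal.

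Spry2, another Sprouty gene, showed the widest gap between probes. The brighter probe, drawn from a cDNA clone, had levels of 1.03 and 0.991 in the input, and of 3.06 and 1.52 in the FLAG IP, all well above background. Its log2 fold change was 1.09 ± 0.39 (SE). The dimmer probe, drawn from the RefSeq transcript, had levels of 0.169 and 0.183 in the input, and of 0.0434 and 0.0654 in the FLAG IP. Only FLAG IP replicate 2 was well above background there, and that probe was called lower on its own, at -1.72 ± 0.27. The gap of 2.82 between the Spry2 probes lay at the 97.3 percentile over the 5943 multi-probe genes, whose median gap was 0.64. The Fgfr2 gap of 1.79 lay at the 89 percentile, and the gaps of Fgfr1, Fgfr3, Fgfr4 and Fgf2 were 0.73, 0.53, 1.11 and 0.29. With the mean of its probes, Spry2 stood at -0.31. The brighter probe stood at 0.59 without FLAG IP replicate 1 and at 1.60 without FLAG IP replicate 2.

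Spry4, a Sprouty gene, was weak on every array. Its tested probe had levels of 0.0329 and 0.0441 in the input, and of 0.0433 and 0.0318 in the FLAG IP, where FLAG IP replicate 1 was not well above background. The groups overlapped, with a log2 fold change of -0.04 ± 0.26 (SE). It turned, without a call, to 1.39 after normexp background correction and to 1.46 with 50 units added to each signal, and it moved to -1.24 under quantile normalization. A second Spry4 probe was not well above background on any array. Dusp6, the gene of a phosphatase that removes phosphate from ERK, was bright, and its groups overlapped. It had levels of 11.8 and 11.2 in the input, and of 12.8 and 10.5 in the FLAG IP, and the log2 fold change was 0.02 ± 0.19 (SE). Dusp6 stood at -0.99 relative to the median of all genes after normexp background correction and at -0.78 with 50 units added, and was not called under any alternative run.

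**Figure D3:**
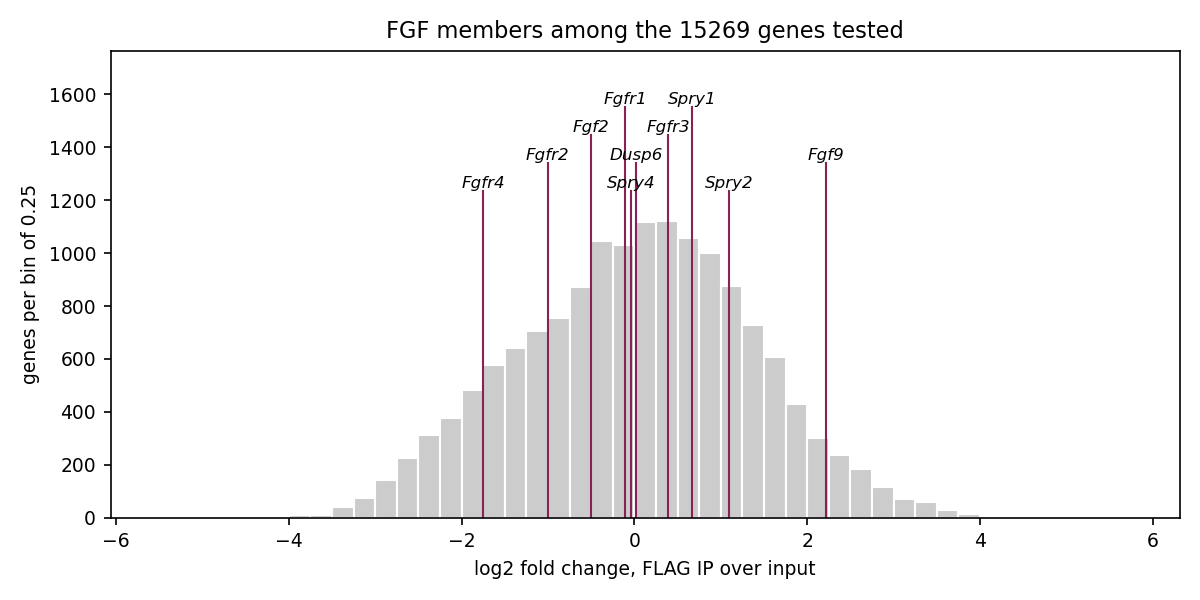
Histogram of the log2 fold change of FLAG IP over input for the 15269 genes tested, in bins of 0.25, with a line for each FGF member. Fgf9 lies in the upper tail at 2.21 and Fgfr4 in the lower tail at -1.75, while Dusp6, Spry4 and Fgfr1 lie near 0.

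Array profiles like those of Fgf9 and Fgfr4 were common. With each gene centred on its own mean, the genes with the smallest Euclidean distance to Fgf9 over the 4 arrays were Ccdc117 (0.034), Kdf1 (0.039), Zfp287 (0.042), Phactr4 (0.044) and Etv6 (0.057), and 184 genes lay within 0.25. The genes nearest to Fgfr4, the member with the most negative difference, were Apoo (0.042), App (0.057), Zfp503 (0.060), Mif (0.064) and Bex3 (0.066), with 227 genes within 0.25.

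Markers of the cells that make or receive FGF9 also differed between the groups, as did markers of other cell types. Of 14 Sertoli cell markers 13 fell and 1 rose in limma, where 25.4% of all genes fell and 28.0% rose. All 14 were well above background on all 4 arrays. Their summed level was 164 and 145 in the input and 29.1 and 29.3 in the FLAG IP. The Sertoli list thus moved opposite to Fgf9. The 1 that rose was Dmrt1, by 2.15 ± 0.17 (adjusted p = 0.00380), a gene that germ cells express as well. The germ cell list had 6 genes that rose, 1 that fell and 7 others among its 14, beside 28.0% and 25.4% of all genes that rose and fell. Its summed level was 98.1 and 105 in the input and 187 and 210 in the FLAG IP. Nanos2 itself, which the transgene also carries, rose by 1.88 ± 0.20 (adjusted p = 0.00477). All 11 markers of interstitial mesenchyme fell, beside 25.4% of all genes, from a summed level of 340 and 321 to 75.7 and 49.4. Among other cell types, 7 of 9 tested Leydig, 6 of 10 endothelial, 6 of 9 macrophage and 6 of 8 erythroid markers fell. None of those lists had a gene called higher. Of 10 mesonephros epithelium markers, 4 rose and 4 fell. All tested Sertoli, germ cell and interstitial markers were well above background on both input arrays. The filter on probes favours this, so nothing is read from it. The part of these cell types in the differences of the FGF genes was not tested.

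The rest of the pathway was read from 5 lists of 85 genes, of which 81 were on the array and 67 were tested. Of these, 16 rose and 20 fell, beside 28.0% and 25.4% of all genes, and the other 31 were not called. The median log2 fold change was -0.05. Without input replicate 1 limma called 0 higher and 0 lower (13 and 14 at an unadjusted p under 0.05). Fewer were also called when input replicate 2 was left out, and the counts over all genes dropped likewise in both runs. These 67 genes were all well above background on both input arrays.

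Among the other secreted FGFs, 5 of 16 genes were tested. Fgf21, which encodes a metabolic hormone, rose by 2.35 ± 0.16 (limma adjusted p = 0.00380), from scaled log2 values of -3.71 and -3.66 in the input to -1.33 and -1.35 in the FLAG IP. Fgf5, a hair growth regulator gene, rose by 1.83 ± 0.32 (adjusted p = 0.0131). Fgf10, which drives branching of lung and other organs from the mesenchyme, fell by 1.35 ± 0.19 (adjusted p = 0.00782), with 1 FLAG IP array well above background. Fgf18 also fell, by 1.04 ± 0.17 (adjusted p = 0.0117), and Fgf8 stood at 0.00 ± 0.35. The closest relatives of Fgf9, Fgf16 and Fgf20, were not well above background on both arrays of either group and were not tested. Of 3 tested intracellular FGF genes, which do not act through the receptors, 0 rose and 0 fell in limma, beside 28.0% and 25.4% of all genes. At an unadjusted p under 0.05 the counts were also 0 and 0. With so few genes tested, nothing is read from these counts.

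Of 23 tested co-receptor and heparan sulfate genes, 10 fell, 3 rose and the other 10 were not called, where 25.4% of all genes fell and 28.0% rose. The median of the list was -0.95, and that of all genes 0.07. The number that fell was 5 with slide as a block and 6 after normexp background correction, against 1549 and 1397 of all 15269 genes. It was also smaller when either input array was left out, as it was over all genes. The heparan sulfate proteoglycan genes Gpc6 and Sdc2 fell by 3.43 ± 0.23 (limma adjusted p = 0.00380) and 2.51 ± 0.41 (adjusted p = 0.011). Gpc6 was well above background on 1 FLAG IP array. Those that rose were Klb, the co-receptor gene for endocrine FGFs, by 2.96 ± 0.31 (adjusted p = 0.00453), Glce, an enzyme gene of heparan sulfate synthesis, by 2.06, and Hs2st1, a sulfotransferase gene, by 0.96. Fgfrl1, a receptor relative without a kinase domain, stood at 0.05 ± 0.17.

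Adaptors and RAS-MAPK genes went both ways. Of 20 tested, 5 rose and 4 fell, beside 28.0% and 25.4% of all genes, and the median was 0.10. The genes that rose were Sos1 by 1.83 ± 0.16 (limma adjusted p = 0.00395), Frs2 by 1.75 ± 0.16 (adjusted p = 0.00398), Grb2 by 1.63 ± 0.18 (adjusted p = 0.00482), Sos2 by 1.499 ± 0.17 (adjusted p = 0.00526) and Ksr1 by 1.03 ± 0.27 (adjusted p = 0.0362). Frs2 encodes the docking protein of FGF receptors, Grb2 the adaptor that recruits the RAS exchange factors SOS1 and SOS2, and Ksr1 a scaffold of the kinase cascade. All 3 tested probes of Frs2 and both of Grb2 were called higher on their own, and 1 of 2 for Sos1. Those that fell were Hras by 1.08, Shc1 by 0.97, Araf by 0.96 and Map2k2 by 0.83. With slide as a block, 3 rose and 0 fell in limma (4 and 0 at an unadjusted p under 0.05). After normexp background correction 2 rose and 0 fell (4 and 5 at an unadjusted p under 0.05). Over all 15269 genes, 1433 rose and 1549 fell with slide as a block, and 1270 and 1397 after normexp. Ksr1 was well above background on 1 FLAG IP array.

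Of 16 tested feedback and target genes outside the members, 6 rose and 4 fell, with a median of 0.28. Over all genes these shares were 28.0% and 25.4%. The immediate early genes Ier3 and Fos rose by 2.69 ± 0.26 (limma adjusted p = 0.00421) and 2.22 ± 0.25 (adjusted p = 0.00512), whereas Ier2 fell by 1.999 ± 0.26 (adjusted p = 0.00694). Egr1, Cbl and Rasa1 also rose, by 1.37, 1.26 and 0.88, with Cbl well above background on 1 FLAG IP array. Myc, Etv1 and Dusp4 also fell, by 1.81, 1.77 and 1.57. Relatives of one another differed in the calls of their brightest tested probes. Of the ETS factor genes that respond to FGF, Etv1 was lower, whereas Etv4 stood at 0.13 ± 0.34 and Etv5 at 0.43 ± 0.17 (adjusted p = 0.105) without passing. Etv1 was well above background on 1 FLAG IP array, and Etv4 and Etv5 on 2. Of the phosphatase genes related to Dusp6, Dusp4 was lower, while Dusp7 at -0.13 ± 0.16 and Dusp9 at -0.40 ± 0.17 did not pass. With every probe on its own, 1 of 2 tested probes was called lower for Dusp4 and likewise 1 of 2 for Dusp9. Of the Sprouty relatives, Spred2 rose by 1.004 ± 0.17 (adjusted p = 0.0121), and Spred1 at -0.35 ± 0.21 did not pass. Spry3 was not found on the array by name. Fgf18, Glce, Hs2st1, Sos2, Ksr1, Hras, Shc1, Araf, Map2k2, Myc, Etv1, Dusp4, Dusp9, Spred1 and Spred2 were named after their values were seen. The same holds for Egr1, Cbl and Rasa1. After normexp background correction 6 of the 67 tested genes of the 5 lists were called higher and 7 lower. Over all 15269 genes tested, 1270 were called higher and 1397 lower in that run.

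**Figure D4:**
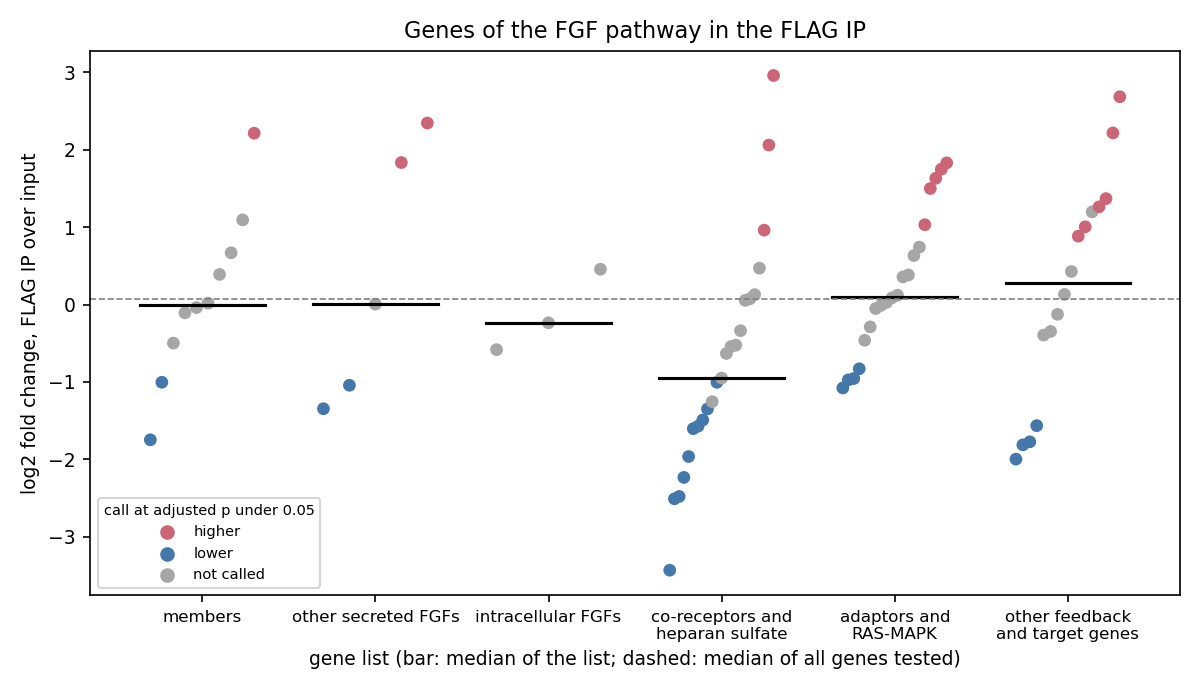
Log2 fold change of FLAG IP over input for each tested gene of the FGF members and of the 5 other FGF pathway lists, coloured by its call at an adjusted p below 0.05, with a bar at the median of each list. The list of co-receptors and heparan sulfate has its median at -0.95, the other lists lie between -0.24 and 0.28, and the dashed line marks 0.07, the median of all genes tested.

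The members' differences followed the alternative settings to different degrees. Fgf9 lay between 1.53 and 2.23 relative to the median of all genes under the 16 alternatives run for it, and was called higher in 14 of them. Fgfr4 lay between -2.30 and -1.27 and was called lower in 11 of 16. Fgfr2 was called lower in 7 of 15, Spry2 higher in 3 of 16 and Spry1 higher in 2 of 16. These counts include the runs with 1 FLAG IP array left out, whose calls rest on the spread between the input arrays. The Spry1 calls came only from those runs. The authors' deposited table gave a ratio of FLAG IP to input of 4.27 for Fgf9, 0.274 for Fgfr4 and 0.932 for Dusp6, and in that table the Spry2 probes had ratios of 1.97 and 0.279.

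**Figure D5:**
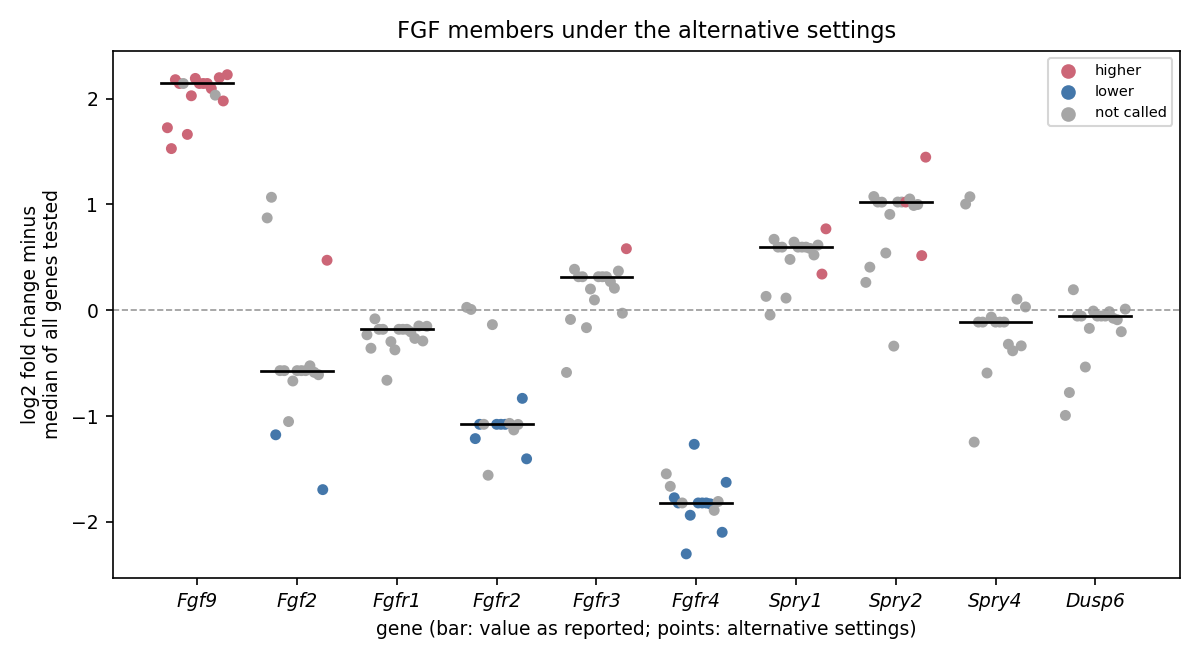
Log2 fold change of each FGF member minus the median of all genes tested, with a bar for the value as reported and a point for each alternative setting, coloured by its call. The Fgf9 points come no nearer to 0 than 1.53 and the Fgfr4 points no nearer than -1.27, whereas points of Fgf2, Fgfr2, Fgfr3, Spry1, Spry2, Spry4 and Dusp6 lie on both sides of 0.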

How the data were processed

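RNA (0.20 µg per array, per the labels' protocols) was labelled with Cy3. The scanner files, deposited by the authors, hold the background-corrected processed signal as intensity, for which the submitters' processing notes name Agilent's Feature Extraction 9.5. The authors' deposited table holds a pooled ratio of FLAG IP to input, and a deposited p-value that was not used. The number of unused per-sample columns was 0.

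The log2 values analysed are log2 of the deposited processed signal minus that of the array's 75th percentile. Spots marked as outliers were set to missing. A probe was tested if well above background on both arrays of a group, and the brightest tested probe stood for its gene. Genes were named by Entrez ID through the RefSeq gene table of GRCm38.p6. The array design is of another build, so no coordinates are given, and no sequences were used. FLAG IP and input were compared with limma 3.58.1 in R 4.3.3 (two-sided, Benjamini-Hochberg over 15269 genes, threshold 0.05). Other probes of a member carry the SE of a fit over 23289 probes. The fit was tested on simulated data.

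Members and lists were chosen with earlier results of these data known. Besides members, the text names by rule the 3 largest called genes of each pathway list, close relatives of members, and the 5 nearest profiles. Fgf8, Nanos2 and Dmrt1 were picked outside this rule. So were genes whose sign turned under an alternative, and those marked as named after their values were seen. The alternatives were normexp, 50 units added, quantile, median or no scaling, averaging or separating a gene's probes, a looser or stricter background filter, outlier spots kept, a robust eBayes fit with a trend, a block for slide or replicate, and omission of 1 array at a time. Counts of alternatives for a member leave out the fit of every probe, and those it did not enter. Normexp used the median signal instead of the mean signal that had been planned.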

Additional observations from a re-analysis of the deposited data

How the results depend on the processing

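Limits: with 2 arrays per group, of which FLAG IP replicate 1 was dim, weak transcripts had no measured level there, and p-values measure the spread between these arrays. Input replicate 1 was alone on its slide, so slide as a block compares the groups within the other slide. Leaving out 1 array assumes that the lone array varies like the other group. The causes of the changes below were not tested.

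Over all genes, 4275 were called higher and 3883 lower. The counts were 1270 and 1397 after normexp background correction, 1714 and 1775 with 50 units added to the processed signal, and 1433 and 1549 with slide as a block. Without scaling they were 0 and 0 in limma (0 and 4047 at an unadjusted p under 0.05), where the median of all genes shifted by -2.49. That shift was 0.31 after normexp, 0.32 with 50 units added, -0.13 with median centring, 0.48 with no filter on dim probes and 0.12 with a filter for signal over background on each of the 4 arrays. Leaving out 1 array gave 0 to 6830 genes higher and 0 to 6053 lower. Of the members, 1 was called higher and 2 lower. The count called higher was 2 with every probe on its own (a gene counting if any probe was called), 2 with the replicate block, 0 without scaling (0 at an unadjusted p under 0.05), and 0 to 5 with 1 array left out. The count called lower was 0 after normexp (0 at an unadjusted p under 0.05), 0 with 50 units added (1 unadjusted), 0 without scaling (2 unadjusted), 1 with no filter on dim probes, 1 with a filter for signal over background on each of the 4 arrays, 1 with the mean of a gene's probes, 1 with slide as a block, 3 under quantile normalization (Fgf2 added), and 0 to 3 with 1 array left out. Of the pathway genes, 16 were called higher and 20 lower, with 6 and 7 after normexp, 7 and 11 with 50 units added, 8 and 7 with slide as a block, 0 and 0 without scaling (0 and 21 at an unadjusted p under 0.05), and 0 to 26 and 0 to 31 with 1 array left out. Without scaling, Fgf9 turned to -0.27, Nanos2 to -0.61, Dmrt1 to -0.33, Fgf21 to -0.14, Fgf5 to -0.65, Fos to -0.27, Frs2 to -0.74, Glce to -0.43, Grb2 to -0.85, Sos1 to -0.66, Sos2 to -0.99, Egr1 to -1.12, Cbl to -1.22, Ksr1 to -1.46, Spred2 to -1.48, Hs2st1 to -1.52 and Rasa1 to -1.60. After normexp and with 50 units added, Fgfr2 turned to 0.41 and 0.40, Fgf10 to 0.75 and 0.72, and Fgfbp3 to 1.17 and 1.01. With input replicate 1 left out no gene was called either way in limma (2732 higher and 2538 lower at an unadjusted p under 0.05). Quantile normalization gave 4077 genes higher and 3706 lower, keeping outlier spots 4277 and 3884, and a robust eBayes fit with a trend 4349 and 4025. Across genes, which are not independent, the replicate differences of the groups had r = 0.050. This value cannot tell whether the replicate numbers pair the arrays, because FLAG IP replicate 1 was dim. The replicate block called 4130 genes higher and 3875 lower, with Spry2 the added member.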
